A study of Mus musculus with 48 samples.

Results

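The transcripts described here come from 8 genes that mark newly formed oligodendrocytes: Enpp6, Bcas1, Rnf122, Prom1, Gpr17, Nfasc, Bmp4 and Tcf7l2. They were taken as the 8 rows of the count table, out of 48526 genes, whose Ensembl identifier carries 1 of these symbols in the mouse GENCODE annotation. The genes were selected on their measured levels in 3-week-old against 5-month-old mice, where several of these transcripts fell, so that contrast is given below as a description, without a test. The libraries came from the cortex of 12 male wild-type C57BL/6JRj mice, 4 at 3 weeks (3w), 4 at 5 months (5m) and 4 at 18 months (18m), with no treatment named in the labels. The sample labels state 6 months for the middle age, whereas the protocol states 5 months, and the name 5m is kept here. Each mouse gave 4 libraries: total homogenate of the cortex (input_TH), synaptosomes from a sucrose gradient (input_SYN), and the pellet that each of these left under a sucrose cushion, which holds ribosome-associated RNA (SC_TH and SC_SYN). Each group therefore holds 4 libraries and the series 48. Levels are CPM, a gene's counts divided by the library's total and put on a common scale, here scaled by the trimmed mean of M values (TMM) over all 48 libraries, and errors of levels are SD with n = 4.

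Oligodendrocytes arise from precursor cells that stop dividing, pass through a short premyelinating stage and then wrap axons with myelin. The premyelinating cells switch on a set of genes that mature myelinating cells and precursors express much less, and these genes are used to mark sites of ongoing oligodendrocyte formation. In the rodent cortex myelination is under way in the weeks after birth and continues at a lower rate in the adult. Synaptosomes are pinched-off nerve terminals with attached postsynaptic membrane, and such preparations also carry fragments of glia and myelin.

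Among the surface and secreted proteins, Enpp6 is a choline-specific phosphodiesterase, Gpr17 an orphan G protein-coupled receptor that holds back maturation, Prom1 a pentaspan membrane glycoprotein also known from stem cells and ependymal cells, and Bmp4 a secreted bone morphogenetic protein. Nfasc encodes neurofascin, an adhesion molecule with a glial form at the paranode and a neuronal form at the node of Ranvier. Bcas1 is a cytoplasmic protein of early myelinating cells, Rnf122 a membrane-bound RING finger ubiquitin ligase, and Tcf7l2 the transcription factor through which Wnt signals act and which is required for oligodendrocyte differentiation. Counts are per gene, so the glial and neuronal forms of Nfasc, and the transcript forms of the other genes, were not separated.

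Promoter windows of 250 bases before an annotated start were available from RefSeq (GRCm38.p6) for 5 of the 8 genes, 8 windows in all, with none for Bcas1, Rnf122 and Gpr17. They were searched on both strands for the SOX-type cores AACAAT (reverse ATTGTT) and ACAAAG (reverse CTTTGT), the TCF/LEF core ATCAAAG (reverse CTTTGAT) and the E-box CAGCTG. The windows of Enpp6 and Tcf7l2 are shown because these genes had the profiles nearest to and farthest from the mean of the 8 genes, and because they were the genes with a match; capitals mark the match, and the last base is the one just before the start.
Enpp6, chr8:46986637-46986886, plus strand: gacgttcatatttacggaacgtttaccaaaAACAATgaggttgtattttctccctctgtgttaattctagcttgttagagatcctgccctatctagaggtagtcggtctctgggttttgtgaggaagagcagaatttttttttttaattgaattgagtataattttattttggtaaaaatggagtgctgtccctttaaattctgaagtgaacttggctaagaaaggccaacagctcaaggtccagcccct
Tcf7l2, first start, chr19:55741560-55741809, plus strand: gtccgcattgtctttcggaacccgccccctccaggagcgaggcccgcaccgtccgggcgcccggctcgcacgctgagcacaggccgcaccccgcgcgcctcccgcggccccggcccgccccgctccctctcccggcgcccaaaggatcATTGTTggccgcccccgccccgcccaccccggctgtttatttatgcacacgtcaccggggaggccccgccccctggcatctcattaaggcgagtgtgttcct
Tcf7l2, second start, chr19:55895071-55895320, plus strand: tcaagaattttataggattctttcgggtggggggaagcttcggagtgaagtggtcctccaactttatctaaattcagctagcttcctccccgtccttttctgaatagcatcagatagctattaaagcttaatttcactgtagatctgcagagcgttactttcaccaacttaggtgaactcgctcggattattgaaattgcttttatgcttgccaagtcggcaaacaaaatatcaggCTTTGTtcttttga
The match begins 220 bases before the start in Enpp6, and 102 and 14 bases before it in the windows of Tcf7l2. AACAAT occurs in 9.42% of the 32851 windows of the table and ACAAAG in 16.5%. ATCAAAG (3.21% of windows) and CAGCTG (13%) were found in none of the 8 windows. A match is a string of letters and not a shown binding site.

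On GRCm38, Enpp6 (ENSMUSG00000038173) lies on chromosome 8 from 46986887 to 47096762 on the plus strand and Rnf122 (ENSMUSG00000039328) on the same chromosome from 31111820 to 31131482, also plus. Tcf7l2 (ENSMUSG00000024985) lies on chromosome 19 from 55741820 to 55933654 on the plus strand. The other 5 genes are on the minus strand. Bcas1 (ENSMUSG00000013523) spans 170346991 to 170427845 of chromosome 2, Prom1 (ENSMUSG00000029086) spans 43993620 to 44102032 of chromosome 5, and Gpr17 (ENSMUSG00000052229) spans 31942997 to 31949636 of chromosome 18. Nfasc (ENSMUSG00000026442) spans 132564690 to 132741797 of chromosome 1, and Bmp4 (ENSMUSG00000021835) spans 46383520 to 46390669 of chromosome 14. The counting ignored strand, so a gene and an overlapping gene on the opposite strand cannot be told apart. Bcas1 shares 474 exonic bases (12.6% of its exonic length) with the antisense genes Bcas1os1 and Bcas1os2, Prom1 shares 424 (5.91%) with Gm16401, Gpr17 shares 188 (3.62%) with Lims2, and Bmp4 shares 89 (3.96%) with Gm15217. No exonic base of the other 4 genes is shared.

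Totals per library ran from 1780267 to 18590040 counts, with input_SYN the shallowest fraction (1780267 to 7879536) and input_TH the most even (9699909 to 13225435). Depth behind the 8 genes differed widely: Nfasc had at least 1831 counts in every library, Gpr17 at least 132 and Bcas1 at least 305, whereas Bmp4 had 4 to 83 and Rnf122 2 to 181. In input_SYN at 5m, Prom1 had 8 to 12 counts per library and Enpp6 8 to 20. All 8 genes passed the filter on low counts in every comparison. The library of mouse 191 stood apart within input_TH at 5m: its summed level of 10 endothelial and mural cell markers was 494 CPM against 282 to 297 CPM in the other 3, and that of 7 ependymal and choroid plexus markers 858 CPM against 45.4 to 125 CPM. Bmp4 was at 5.47 CPM in that library and at 1.54 to 1.82 CPM in the other 3, and Prom1 at 14.7 CPM against 10.9 to 11.1 CPM. At 18m the library of mouse 195 was likewise high in the ependymal and choroid plexus sum, at 1325 CPM against 80.8 to 121 CPM, with Prom1 at 10.6 CPM among 9.33 to 11.1 CPM. At 3w this sum in input_TH also varied, from 143 to 562 CPM. Without mouse 191, the difference of Prom1 between 3w and 5m in input_TH was -0.88 in place of -0.76.

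**Figure D1:**
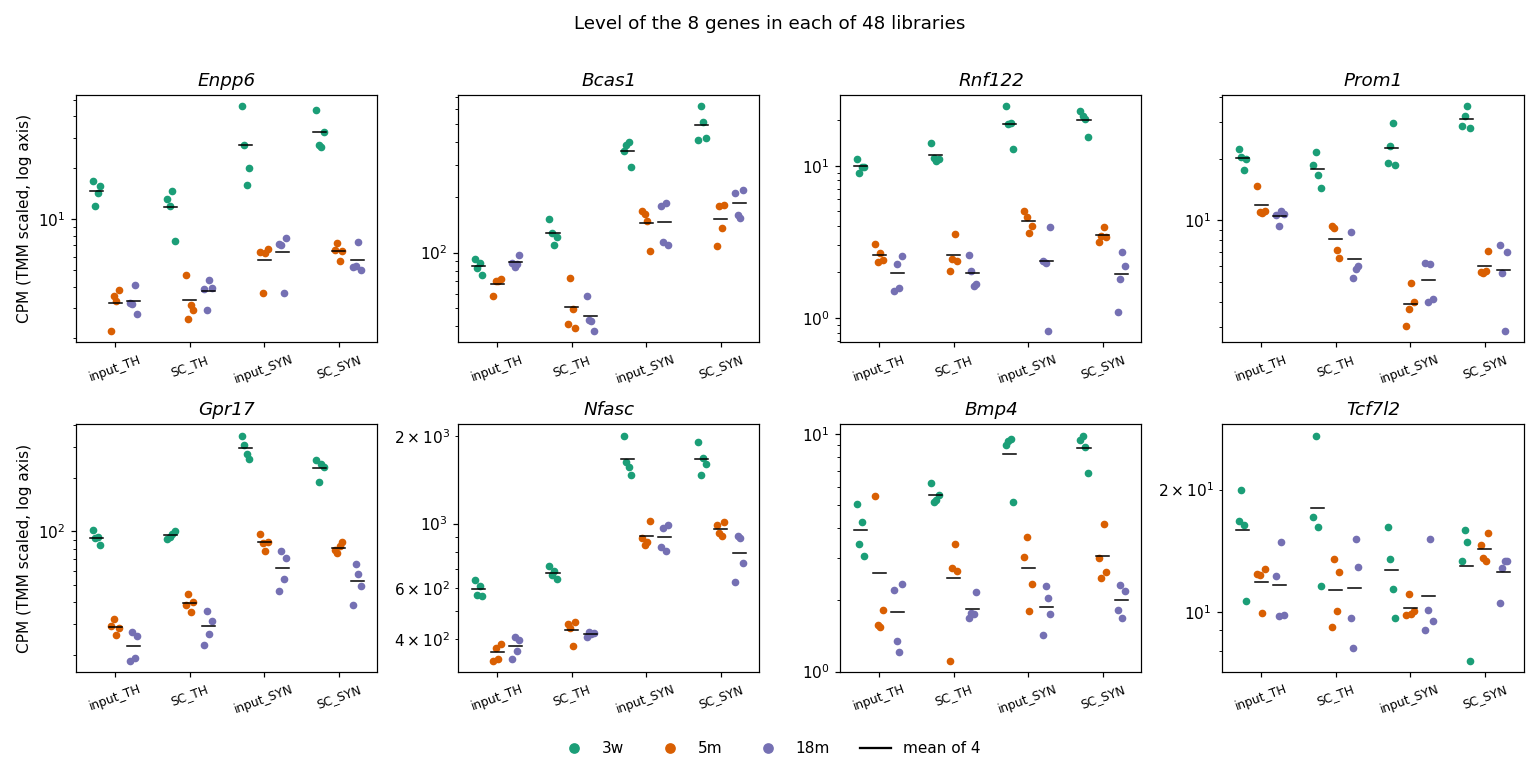
CPM of each gene (log axis) in all 48 libraries, by fraction along the horizontal axis and age by colour, with a line at the mean of each group of 4. For Gpr17 the 3w libraries of input_TH sit between 84.0 and 102 CPM and the 5m libraries between 25.9 and 31.9 CPM, while for Tcf7l2 the ages overlap in every fraction.

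Per kilobase of exon, Nfasc had the highest mean level of the 8 genes in 11 of the 12 groups, with 25.5 ± 1.64 CPM per kb in input_TH at 5m. Bcas1 was next there at 17.9 ± 1.76 and Gpr17 followed at 5.56 ± 0.477 CPM per kb. The exception was SC_SYN at 3w, where Bcas1 stood at 130 ± 26.5 and Nfasc at 118 ± 13.2 CPM per kb, a difference within their spread. Rnf122 was lowest in 10 groups, with 0.289 ± 0.0366 CPM per kb in input_TH at 5m, and Tcf7l2 was lowest in both SYN fractions at 3w.

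From 3w to 5m, the contrast on which the list rests, Enpp6 in input_TH went from 16.8, 12.0, 14.2 and 15.6 CPM to 2.202, 3.55, 3.28 and 3.86 CPM. In SC_SYN it went from 43.8, 27.3, 26.6 and 32.2 CPM to 6.62, 7.21, 5.67 and 6.46 CPM. The 2 ages do not overlap in either fraction, and the log2 difference of Enpp6 lay between -2.37 and -1.79 over the 4 fractions. Rnf122 in SC_TH went from 14.03, 11.3, 10.8 and 11.03 CPM to 2.04, 2.44, 3.54 and 2.35 CPM, and its log2 difference lay between -2.55 and -1.93. Gpr17, the receptor, lay between -1.80 and -1.28. These 3 genes were lower at 5m in all 4 fractions with no overlap between the ages. In bulk tissue, fewer cells of a type and less RNA per cell cannot be told apart, here and for every value that follows.

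Bcas1 and Prom1 differed between fractions in how far they fell. In input_TH, Bcas1 stood at 92.4, 82.5, 87.9 and 76.0 CPM at 3w and at 57.9, 70.6, 70.1 and 72.3 CPM at 5m, a log2 difference of -0.33. In SC_TH it went from 152, 127, 110 and 122 CPM to 41.3, 73.0, 49.5 and 38.9 CPM, a log2 difference of -1.35, and in SC_SYN the difference was -1.73. Prom1 differed by -0.76 in input_TH and -1.13 in SC_TH, and by -2.55 in input_SYN and -2.42 in SC_SYN. The ependymal and choroid plexus sum ran from 334 to 989 CPM in SC_TH at 3w and from 30.7 to 387 CPM at 5m. Its genes differed there by -1.95 (Ttr), -1.40 (Folr1), -1.12 (Kl) and -0.80 (Ccdc153) on the log2 scale. Foxj1 was at -0.45 and Rarres2 at 0.35, so the sum does not describe each gene. In SC_SYN the sum ran from 119 to 276 CPM at 3w and from 46.8 to 653 CPM at 5m. The part of these sums in the values of Prom1 was not tested. Nfasc differed by -0.91 to -0.65. Bmp4 differed by -1.65 to -1.22 in the 3 fractions other than input_TH, where the difference was -0.63 with mouse 191 and -1.28 without it.

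Tcf7l2 did not share this pattern. In SC_SYN it stood at 13.4, 15.9, 14.9 and 7.58 CPM at 3w and at 14.6, 13.6, 13.3 and 15.6 CPM at 5m, a log2 difference of 0.11, and the ages overlapped in all 4 fractions. Counting genes whose 4 libraries at 5m all lay below the 4 at 3w gave 6 of 8 in input_TH, where 9.83% of all tested genes do so. The count was 7 of 8 in SC_TH (8.85% of all genes), 7 of 8 in input_SYN (6.5%) and 7 of 8 in SC_SYN (8.99%). These counts follow from how the list was made.

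From 5m to 18m, 2 of the 8 genes passed an adjusted p of 0.05 in input_TH (edgeR quasi-likelihood test, Benjamini-Hochberg over all genes), where 15.5% of 18078 genes did. The list was not chosen on this contrast, but the 5m libraries are shared with the contrast that chose it. The contrasts are therefore not independent, and genes picked for low values at 5m can appear to rise afterwards. Bcas1 rose there, from the 5m values above to 87.9, 83.3, 86.3 and 97.5 CPM at 18m, with no overlap (log2 fold change 0.39 ± 0.08 SE, adjusted p = 0.00445). Without mouse 191 the difference was 0.32 and still passed (adjusted p = 0.00415 from edgeR). Gpr17 fell, from 29.2, 31.9, 25.9 and 28.6 CPM to 18.7, 26.9, 19.4 and 25.7 CPM, with 1 library at 18m above the lowest at 5m (-0.35 ± 0.11, adjusted p = 0.0386). The Gpr17 call was lost when mouse 189, 192, 194, 195 or 197 was left out, with adjusted p from 0.0575 to 0.11.

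No gene of the 8 passed in the other 3 fractions, where 2.17% (SC_TH), 0.139% (input_SYN) and 0.014% (SC_SYN) of all genes did. At an unadjusted p under 0.05 the count was 1 in SC_TH (Gpr17), 2 in input_SYN (Gpr17 and Rnf122) and 3 in SC_SYN (Gpr17, Rnf122 and Bmp4), where 17.5%, 9.36% and 17.4% of all genes reached it. Gpr17 had negative log2 differences in each of them, of -0.42 ± 0.11 in SC_TH (adjusted p = 0.0644 from edgeR), -0.49 ± 0.14 in input_SYN (0.252) and -0.59 ± 0.14 in SC_SYN (0.16). In SC_SYN its 4 values at 18m, 38.4, 65.5, 57.6 and 49.2 CPM, all lay below those at 5m, which were 78.8, 75.2, 83.1 and 87.2 CPM. With DESeq2 in place of edgeR the adjusted p of Gpr17 was 0.032 in SC_TH and 0.0157 in SC_SYN. Without mouse 196 it was 0.0262 in SC_TH from edgeR.

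Rnf122 also had negative differences in all 4 fractions, -0.41 ± 0.19, -0.37 ± 0.22, -0.74 ± 0.34 and -0.77 ± 0.24 in the order input_TH, SC_TH, input_SYN and SC_SYN, none of them past the threshold. In SC_SYN it went from 3.16, 3.43, 3.94 and 3.40 CPM to 1.09, 1.79, 2.72 and 2.19 CPM, without overlap, on 6 to 39 counts per library (adjusted p = 0.187 from edgeR). Bmp4 in SC_SYN went from 3.01, 2.48, 4.19 and 2.62 CPM to 1.81, 2.32, 1.68 and 2.19 CPM, also without overlap (-0.58 ± 0.24, adjusted p = 0.239 from edgeR). With libraries thinned to the smallest total this difference of Bmp4 was 0.056, and in input_TH its difference of -0.53 was 0.12 without mouse 191. In SC_SYN, 3 of the 8 genes had all 18m libraries below all 5m libraries, against 6.21% of all genes. The count was 1 in input_SYN (2.92% of all genes), 0 in SC_TH (5.86%) and 0 in input_TH (8.2%). All 18m libraries lay above all 5m libraries for 1 gene in input_TH (10.2% of all genes) and for 0 in each other fraction. Enpp6, Nfasc and Tcf7l2 lay between -0.25 and 0.18 in all fractions, and Prom1 between -0.31 and 0.34.

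Whether the 18m vs 5m change differed between SYN and TH was tested directly as an interaction. None of the 8 genes passed, in SC libraries (0% of 16630 genes passed, 2855 at an unadjusted p under 0.05) or in input libraries (2.42% of 17860). The largest difference for SC was that of Bcas1, at 0.46 ± 0.27 (adjusted p = 0.375 from edgeR).

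**Figure D2:**
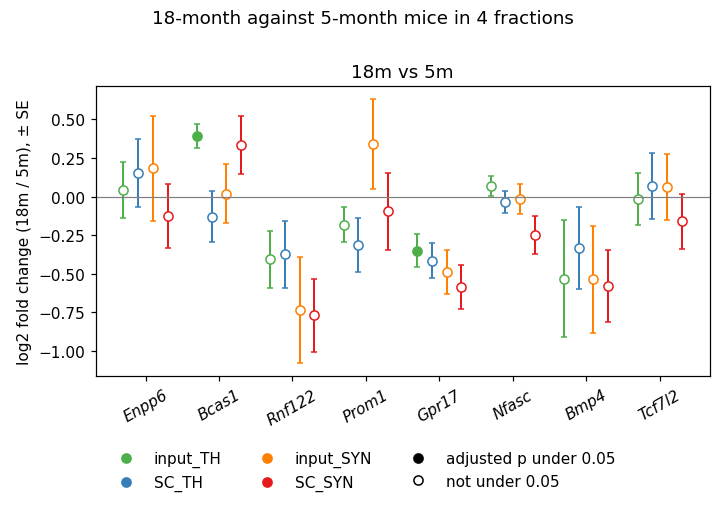
Log2 fold change of 18m against 5m for each gene, with bars of 1 SE, in the 4 fractions; filled points passed an adjusted p of 0.05. Only the input_TH points of Bcas1 (0.39) and Gpr17 (-0.35) are filled, and the points of Gpr17 and Rnf122 lie below 0 in all 4 fractions.

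The comparison of SC_SYN with SC_TH asks whether ribosome-associated transcripts were relatively more abundant in synaptosomes than in the whole cortex. At 3w, 7 of the 8 genes were higher in SC_SYN, while 31.1% of 16630 genes were higher and 63.5% passed in either direction. The 3w libraries are shared with the contrast that chose the list, so counts and p-values at 3w are not independent of that choice. Bcas1 had the largest difference: 406, 622, 512 and 418 CPM in SC_SYN against 152, 127, 110 and 122 CPM in SC_TH (log2 fold change 1.98 ± 0.19, adjusted p = 2.05e-09 from edgeR). Enpp6 (1.49 ± 0.20), Nfasc (1.35 ± 0.10) and Gpr17 (1.32 ± 0.13) followed. Prom1 (0.86 ± 0.20), Rnf122 (0.81 ± 0.18) and Bmp4 (0.70 ± 0.23) also rose. The call of Bmp4 was lost without mouse 188 (adjusted p = 0.0536 from edgeR) and after thinning to the smallest total (0.302), and that of Prom1 after thinning (0.0527). For these 7 genes every SC_SYN library lay above every SC_TH library, as it did for 26.5% of all genes. Tcf7l2 pointed the other way, at -0.45 ± 0.23 (adjusted p = 0.0904 from edgeR), and passed when libraries of the same mouse were paired in a block (adjusted p = 0.0379).

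At 5m and at 18m, 4 genes passed, namely Enpp6, Bcas1, Gpr17 and Nfasc, all higher in SC_SYN. Whether the differences changed from 3w was not tested. The 5m libraries are likewise shared with the contrast that chose the list. The means of Rnf122 and Bmp4 in SC_SYN were 20.0 and 8.71 CPM at 3w and 3.48 and 3.07 CPM at 5m, a fall on which the list rests. Of all genes, 32.1% were higher at 5m and 29.9% at 18m. Bcas1 stood at 109, 178, 136 and 182 CPM in SC_SYN at 5m and at 212, 160, 154 and 219 CPM at 18m, against 37.6 to 73.0 CPM in SC_TH at these ages (1.62 ± 0.19 and 2.07 ± 0.19). Nfasc stood at 989, 925, 910 and 1010 CPM at 5m and at 632, 907, 895 and 730 CPM at 18m, against 380 to 458 CPM in SC_TH (1.17 ± 0.10 and 0.95 ± 0.10). Both genes, and also Enpp6 and Gpr17, were higher in each SC_SYN library than in any SC_TH library of the same age. So were 28.8% of all genes at 5m and 25.9% at 18m. Tcf7l2 was so at 5m only. Gpr17 was higher by 1.07 ± 0.13 and 0.89 ± 0.13. Enpp6 was higher by 0.92 ± 0.23 and 0.63 ± 0.22, and at 18m its adjusted p of 0.016 became 0.0502 without mouse 196 and 0.0755 without mouse 197. Prom1 lay below 0 at both ages (-0.40 ± 0.22 and -0.22 ± 0.22, neither past the threshold). At 5m Tcf7l2 was at 0.38 ± 0.21 (adjusted p = 0.122 from edgeR, 0.0386 with the mouse block) and Rnf122 at 0.46 ± 0.22 (0.0624), which passed without mouse 193 (0.0376) or mouse 195 (0.0435).

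In the input libraries the picture was alike for most genes. At 3w, 6 of the 8 genes were higher in input_SYN than in input_TH (31.7% of 17860 genes), and at 5m and 18m it was 5 and 4 (32.6% and 32.9%). The 3w and 5m libraries also served the contrast that chose the list, so tests at these ages are not independent of it. Bcas1 was higher by 2.08 ± 0.15 at 3w, 1.10 ± 0.15 at 5m and 0.72 ± 0.15 at 18m. Gpr17 was higher by 1.69 ± 0.13, 1.60 ± 0.14 and 1.48 ± 0.14, and Nfasc by 1.49 ± 0.09, 1.34 ± 0.09 and 1.25 ± 0.09. At 5m the call of Enpp6 (0.87 ± 0.32, adjusted p = 0.0187) was lost without mouse 191, 193 or 194 (adjusted p 0.0518 to 0.125), and that of Rnf122 (0.74 ± 0.28, 0.0217) without mouse 191, 192 or 194 (0.0581 to 0.0784). Bmp4 was higher at 3w only (1.09 ± 0.33), and its differences of 0.07 at both later ages had an SE of 0.44 and 0.43. The 5m value was 0.65 without mouse 191 and the 18m value 0.29 without mouse 195, neither past the threshold.

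Prom1 was the exception. At 3w its levels in input_TH, 22.3, 20.4, 17.7 and 19.9 CPM, and in input_SYN, 19.0, 23.1, 29.7 and 18.6 CPM, overlapped (log2 fold change 0.15 ± 0.14, adjusted p = 0.35 from edgeR). At 5m it stood at 14.7, 10.99, 10.9 and 11.1 CPM in input_TH and at 3.04, 3.69, 4.94 and 4.01 CPM in input_SYN, the latter on 8 to 12 counts per library. It was thus lower in every input_SYN library (-1.61 ± 0.21, adjusted p = 1.53e-07, and -1.38 without mouse 191), as it was at 18m (-1.09 ± 0.18, adjusted p = 3.78e-06). Genes lower in input_SYN made up 40.1% of all genes at 5m and 39.4% at 18m. Tcf7l2 passed at no age, at -0.25 ± 0.20, -0.21 ± 0.21 and -0.15 ± 0.19.

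Other genes of the lineage and markers of other cells moved with the same comparison. At 3w, 15 genes of mature myelin summed to 4413 to 5357 CPM in SC_TH and 9802 to 11911 CPM in SC_SYN. For 12 genes of precursors and the whole lineage the sums were 859 to 925 CPM and 1991 to 2289 CPM. For 17 further markers of newly formed oligodendrocytes they were 734 to 814 CPM and 1029 to 1141 CPM. All 10 astrocyte markers were higher in SC_SYN at each age, with a sum of 5919 to 7179 CPM over SC_TH libraries and 16229 to 19452 CPM over SC_SYN libraries. Of 10 microglia markers 9, 10 and 10 were higher at 3w, 5m and 18m, with sums of 254 to 380 CPM in SC_TH and 580 to 1236 CPM in SC_SYN. Of 10 endothelial and mural markers 8 were lower at each age, and of 6 nuclear RNAs 6, 6 and 5 were lower. The 10 neuron markers were mixed, with 3 higher at each age and 5, 7 and 7 lower. Their sum was nonetheless higher in synaptosomes, at 9398 to 11284 CPM over SC_TH libraries and 14403 to 17936 CPM over SC_SYN libraries. The part of these differences in the values of the 8 genes was not tested. The direction also depends on scaling: with library totals in place of TMM the median gene shifts from between -0.18 and -0.04 to between -0.83 and -0.59 (log2, SYN against TH). On that scale Bcas1 at 3w and 5m, and Gpr17 and Nfasc at every age, kept an adjusted p under 0.05 in both input and SC libraries, whereas Bmp4, Rnf122 and Enpp6 at 3w in input libraries did not. Rnf122 (adjusted p = 0.188), Prom1 (0.161) and Bmp4 (0.55) also lost their 3w calls in SC libraries there, which leaves 4 of the 7. Tcf7l2 became lower on that scale in SC libraries at 3w (-0.99, adjusted p = 0.000391 from edgeR) and in input libraries at each age (adjusted p = 0.000445, 0.000548 and 0.00113).

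**Figure D3:**
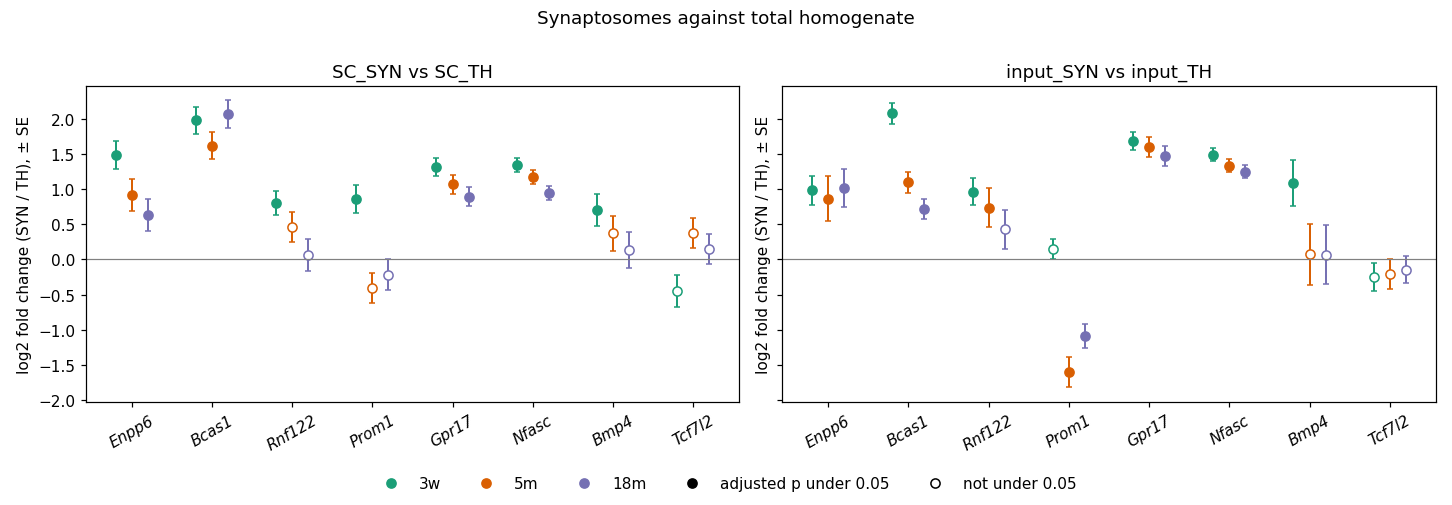
Log2 fold change of synaptosomes against total homogenate with bars of 1 SE for each gene and age, in ribosome-associated RNA (left) and in input (right); filled points passed an adjusted p of 0.05. Bcas1, Gpr17 and Nfasc are filled and above 0 in all 6 comparisons, and Prom1 in input lies at -1.61 at 5m and -1.09 at 18m.

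The ratio of SC to input within a compartment is the study's measure of translational efficiency. Here too the 3w and 5m libraries served the contrast that chose the list. Tests at these ages, in TH and SYN, are not independent of that contrast. In TH, Bcas1 had a positive log2 fold change at 3w and negative ones at 5m and 18m. At 3w it was higher in SC_TH than in input_TH (0.60 ± 0.14, adjusted p = 0.000554 from edgeR), with 0.72, 0.62, 0.33 and 0.68 as the log2 ratios of the 4 mice. At 5m it was lower (-0.44 ± 0.14, adjusted p = 0.00828), with ratios of -0.49, 0.05, -0.50 and -0.89, and the call was lost without mouse 194 (adjusted p = 0.101). At 18m it was also lower (-0.96 ± 0.14, adjusted p = 9.23e-07 from edgeR), with ratios of -0.60, -0.94, -1.02 and -1.38 and no overlap of SC_TH with input_TH.

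The step from 5m to 18m in this ratio was tested as an interaction chosen after these values were seen. It was -0.52 ± 0.20 for Bcas1, with an adjusted p of 0.165 from edgeR, 0.0895 with mouse as a block and 0.0256 without the filter on low counts. None of the 8 genes passed in TH, where 1.78% of 18416 genes did, or in SYN, where none of 14301 genes did and 393 had an unadjusted p under 0.05. The difference in sign between 3w and 5m uses the contrast on which the list rests, and it was not tested.

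Prom1 was likewise lower in SC_TH than in input_TH at 5m (-0.55 ± 0.15, adjusted p = 0.00193) and 18m (-0.69 ± 0.15, adjusted p = 0.000191), with SC_TH at 9.34, 9.20, 7.17 and 6.55 CPM and then 8.81, 5.21, 5.78 and 6.01 CPM. At neither age did an SC_TH library reach an input_TH library. The differences were -0.53 without mouse 191 at 5m and -0.85 without mouse 195 at 18m, both past the threshold. Gpr17 was higher in SC_TH at 5m (0.44 ± 0.12, adjusted p = 0.00165) and 18m (0.38 ± 0.12, adjusted p = 0.00655), and was at 0.06 ± 0.11 at 3w. Nfasc was higher at each age, by 0.20 ± 0.07, 0.26 ± 0.07 and 0.16 ± 0.07, with an adjusted p at 18m of 0.0459 that rose to between 0.0507 and 0.149 without mouse 189, 195, 197 or 198, and a 3w call that was lost without mouse 188 (0.0538). These genes make up 2, 4 and 4 of 8 called at 3w, 5m and 18m, where 52.8%, 62.1% and 64% of all genes passed.

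With all libraries at full depth, Enpp6, Rnf122, Bmp4 and Tcf7l2 passed at no age in TH with edgeR and lay between -0.26 and 0.49. Bmp4 at 5m was at -0.12 ± 0.34, and at 0.86 with an adjusted p of 0.00577 without mouse 191. Bmp4 at 3w passed without mouse 191 (0.48, adjusted p = 0.0373 from edgeR) and after thinning (1.12, 0.0165), and Rnf122 at 5m passed after thinning (1.21, 0.0267). The 6 nuclear RNAs, which include Malat1 and Meg3, were lower in SC_TH than in input_TH in 5, 6 and 6 cases at the 3 ages. Their sum in SC_TH ran from 10521 to 13856 CPM at 3w, 7528 to 11145 CPM at 5m and 5329 to 6369 CPM at 18m, against 16693 to 19448 CPM in input_TH. Their part in the ratios of Bcas1 and Prom1 was not tested.

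In synaptosomes, none of the 8 genes differed between SC_SYN and input_SYN at 3w, 5m or 18m with edgeR, where 18.5%, 20% and 12.6% of all genes passed. Unadjusted p-values under 0.05 were reached by Bcas1 (0.43 ± 0.20), Prom1 (0.46 ± 0.21) and Gpr17 (-0.39 ± 0.14) at 3w and by Tcf7l2 (0.46 ± 0.20) at 5m, where 32% and 33.3% of all genes reached them. Gpr17 at 3w, with 253, 190, 241 and 232 CPM in SC_SYN against 348, 310, 274 and 255 CPM in input_SYN, had an adjusted p of 0.0513. It passed with mouse as a block (0.0192), with DESeq2 (0.0312), and without mouse 195, 196 or 198 (0.0192 to 0.0439).

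**Figure D4:**
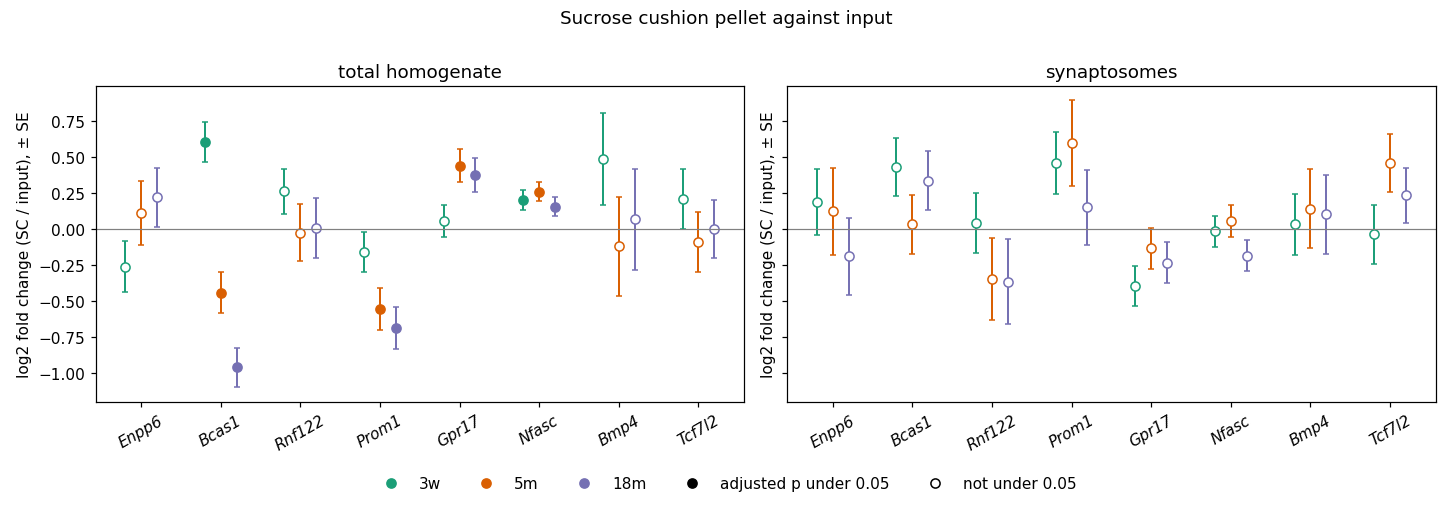
Log2 fold change of SC against input with bars of 1 SE for each gene and age, in total homogenate (left) and synaptosomes (right); filled points passed an adjusted p of 0.05. In total homogenate Bcas1 lies at 0.60, -0.44 and -0.96 at the successive ages, and no point is filled in synaptosomes.

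Other genes of the lineage gave a frame for these values. These lists, like those in the paragraphs below, were chosen with earlier results of these data known. Their counts are therefore a description and not independent support. Of 17 further genes used as markers of newly formed oligodendrocytes, 14 fell from 3w to 5m in input_TH, 12 in SC_TH, 9 in input_SYN and 10 in SC_SYN, and none rose (7.05%, 8.46%, 1.94% and 4.02% of all genes fell). Mpzl1, an adhesion-linked membrane protein, fell by 1.75 on the log2 scale in SC_SYN, and Kif19a, a kinesin, by 1.81 in input_TH. Of 15 genes of mature myelin, 12, 11, 11 and 11 fell in the same order, 14 of them tested in input_SYN. Apod, an apolipoprotein, rose in input_TH (0.85) and SC_TH (0.84), where 4.76% and 9.48% of all genes rose, and Trf, transferrin, rose in SC_TH (0.78). Of 12 genes of precursors and the whole lineage, 9, 4, 4 and 4 fell, 11 of them tested in input_SYN, among them the lineage factor Olig1 (-0.96 in input_TH).

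From 5m to 18m in input_TH, 4 of 12 precursor and lineage genes rose, led by Olig1 (0.64 ± 0.09) and Sox10 (0.62 ± 0.08), the factor that drives myelin genes, and 4 of 15 myelin genes rose, led by Opalin (0.46 ± 0.13) and Mag (0.42 ± 0.05), while none of either list fell (8.18% of all genes rose and 7.35% fell). None of the 17 further newly formed markers passed there, and in SC_TH 1 fell, Frmd4a (-0.32 ± 0.08). In both SYN fractions none of these 3 lists had a gene past the threshold. In the same input_TH comparison 5 of 10 endothelial and mural markers were lower at 18m, with a sum of 247 to 274 CPM against 282 to 494 CPM at 5m. Of 10 neuron markers 5 were higher at 18m and none lower, with a sum of 6433 to 6769 CPM against 5506 to 6558 CPM. The part of either in the values of Bcas1 and Gpr17 was not tested.

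Of 10 BMP receptors and Smads, none passed from 3w to 5m in input_TH or input_SYN, 2 rose in SC_TH (Smad9, 0.48 and Smad1, 0.33) and 1 fell in SC_SYN (Bmpr1a, -0.49). From 5m to 18m, 4 fell in input_TH, led by the receptors Acvr2a (-0.38) and Bmpr1a (-0.31). The other 4 BMP ligands passed in no age comparison. Of 11 BMP targets and antagonists, the antagonist Chrd rose from 3w to 5m in input_TH (0.41) and SC_SYN (0.77), where 4.02% of all genes rose. Of 16 genes of Wnt signalling, Apc, part of the complex that degrades beta-catenin, fell from 3w to 5m in all 4 fractions (-0.85, -0.83, -1.42 and -1.34), and no gene of the list passed from 5m to 18m in any fraction. Of 12 axoglial partners of Nfasc, such as Cntn1 and Cntnap1, 3 fell in input_TH from 3w to 5m, none in either SYN fraction, and 11 or 12 were higher in SYN than in TH in each of the 6 comparisons.

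**Figure D5:**
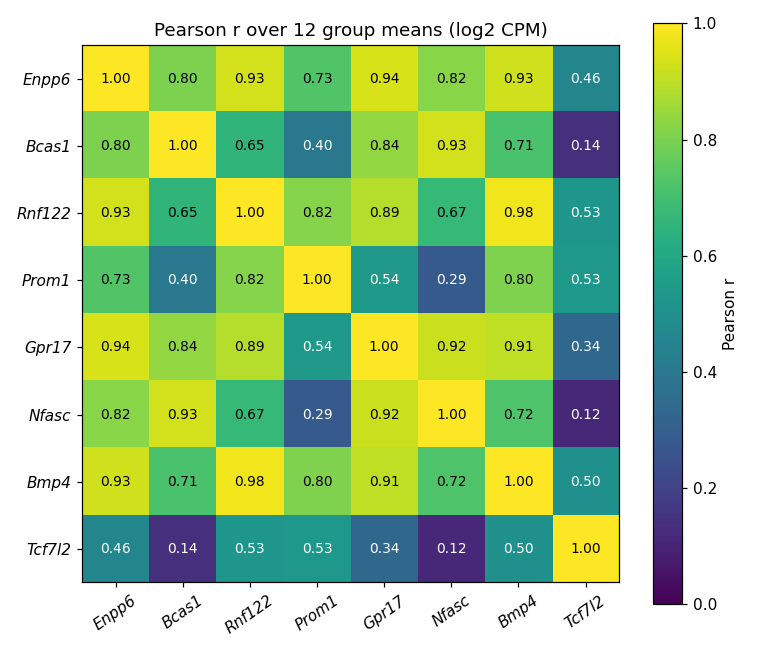
Pearson r between the genes over the 12 group means (4 fractions by 3 ages, log2 CPM), with the value in each cell. Rnf122 and Bmp4 are closest at 0.98, and the row of Tcf7l2 holds values of 0.12 to 0.53.

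The profiles over the 12 group means were not all alike. The r with the mean profile of all 8, to which each gene contributes, was 0.98 for Enpp6, 0.97 for Bmp4, 0.96 for Rnf122 and 0.94 for Gpr17. It was 0.81 for both Bcas1 and Nfasc, 0.76 for Prom1 and 0.53 for Tcf7l2. Bcas1 and Nfasc were at 0.93 with each other, while Prom1 was at 0.40 with Bcas1 and 0.29 with Nfasc. These points share mice and fractions, so r is a description.

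Among 12037 other genes, those most like the mean profile included Col1a1, Chst3, Mog, Gsn, Cldn11, Vamp3 and Fzd10, with r from 0.98 to 0.95. Mog and Cldn11 are myelin proteins, Chst3 a chondroitin sulfotransferase, Gsn the actin-severing gelsolin and Col1a1 a collagen. Over the 48 single libraries 5 of the top 8 were again among the top 8. For single members, the nearest genes were Mog for Enpp6 (0.98), Cldn11 for Gpr17 (0.99), Mpzl1 for Rnf122 (0.97), Chst3 for Bmp4 (0.97), Afg3l1 for Bcas1 (0.96), Nkapd1 for Prom1 (0.96), Adam19 for Nfasc (0.99) and Igf2 for Tcf7l2 (0.88). For Tcf7l2 and Igf2 the value over the 48 libraries was 0.29.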

How the data were processed

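RNA was measured in 48 libraries from the cortex of 12 mice. Per the labels and the study's methods, the libraries were rRNA-depleted and directional, with adaptors that carry molecular identifiers (whether these were used to collapse reads is not given in the sources used here), and were sequenced single-end in more than 1 run. The submitters' processing notes name bcl2fastq 2.20.0.422, TopHat2 2.1, featureCounts and GRCm38, and reads were counted without strand. The deposited values are the raw counts of 48526 genes, not normalized by the authors. The oldest mice are given as 18 months in the labels, while the protocol allows a slightly older age.

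Gene symbols and exonic lengths came from GENCODE for GRCm38, which matched 48144 identifiers. The unmatched rows held 0.0596% of counts. Counts were filtered by filterByExpr, scaled by TMM and tested by edgeR 4.0.16 (R 4.3.3), using the quasi-likelihood test with Benjamini-Hochberg adjustment over all genes and a threshold of 0.05. Each age comparison was fitted on the 12 libraries of 1 fraction, and each comparison of fractions on 24 libraries. SE is the log2 fold change divided by the square root of F. Nothing says that more than 1 library was made per mouse and fraction, so mice are the replicates. Replicates differed by 1.98 to 32.2 times counting noise over 72 pairs. In simulated counts of SC_SYN at 18m against 5m (14094 genes), 65 of 100 genes changed by 1 and 99 of 99 changed by 2 (log2) were recovered. Of the unchanged genes, 14 were called. No rate is given for smaller changes or for genes with few counts.

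The members and lists were chosen with earlier results of these data known. Named genes of other lists are those with the largest changes in each direction past the threshold. A gene that this rule would name is not reported here. Likeness is Pearson r of log2 CPM over group means. Alternatives were DESeq2 1.42.0, DESeq2 size factors, library totals, no filter, thinning to 1780267 counts per library, 1 fit of all libraries, the mouse as a block and leaving out each mouse. Fractions of 1 mouse come from 1 animal and so are paired; their deviations from group means correlated with a median r of -0.01 to 0.11 over the 6 pairs of fractions.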

Additional observations from a re-analysis of the deposited data

Results flagged for a closer look

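In 9 of the 96 groups of 4 libraries (8 genes, 4 fractions, 3 ages), the highest or lowest library stood apart from the other 3 by more than Dixon's 95% limit, against about 1 in 20 groups by chance. In input_TH at 5m, 3 of these were mouse 191: Bcas1 at 57.9 CPM against 70.1 to 72.3 CPM (gap over range 0.849), Prom1 at 14.7 against 10.9 to 11.1 CPM (0.942) and Bmp4 at 5.47 against 1.54 to 1.82 CPM (0.928). The same library had the raised endothelial and ependymal sums given above, whose part in these values was not tested. In the same group Tcf7l2 of mouse 193 was at 9.92 CPM against 12.3 to 12.8 CPM (0.844).

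Enpp6 was flagged in input_SYN at 5m, where mouse 192 had 3.69 CPM against 6.29 to 6.69 CPM (0.867), and in SC_SYN at 18m, where mouse 197 had 7.36 CPM against 5.03 to 5.31 CPM (0.878). Rnf122 in SC_TH at 3w was at 14.03 CPM in mouse 187 against 10.8 to 11.3 CPM (0.854). Prom1 in SC_SYN at 5m was at 7.07 CPM in mouse 194 against 5.56 to 5.67 CPM (0.926). Bmp4 in input_SYN at 3w was at 5.14 CPM in mouse 190 against 8.95 to 9.49 CPM (0.875).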

How the results depend on the processing

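Of the 8 genes, 2 values of 32 passed from 5m to 18m over the 4 fractions. That count was 4 with DESeq2, 0 with libraries thinned to the smallest total (1780267 counts) and 1 to 3 when 1 mouse was left out. Between SC_SYN and input_SYN 0 of 24 passed, against 1 (Gpr17 at 3w) with DESeq2, 1 with DESeq2 size factors, 1 after thinning, 1 with the mouse as a block and 0 to 1 with 1 mouse left out. In the change of the SC to input ratio from 5m to 18m, 0 of 16 passed, against 1 (Bcas1 in TH) without the filter. The other counts stayed within 1.5 times: 15 of 24 for SC_SYN against SC_TH (17 with the mouse as a block), 17 of 24 for input_SYN against input_TH (17 with the block), 10 of 24 for SC_TH against input_TH (10 with the block) and 0 of 16 for the SYN against TH interaction (0 with the block). Pairing by mouse changed no call but those of Tcf7l2 and Gpr17 given above.

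Of the values that passed in no setting, 95 in all, 44 changed sign in at least 1 setting, the largest being Bmp4 in SC_SYN from 5m to 18m (-0.58, and 0.056 after thinning). Among values that passed in some setting or are named above, these turned sign. After thinning, Rnf122 was 0.45 in input_TH from 5m to 18m, -0.069 in SC_SYN against SC_TH at 5m and 1.21 in SC_TH against input_TH at 5m, Bmp4 was 0.56 in the last comparison, and Tcf7l2 was 0.076 in input_SYN against input_TH at 18m. With library totals, Rnf122 (-0.12) and Tcf7l2 (-0.21) turned in SC_SYN against SC_TH at 5m and Prom1 (-0.42) in input_SYN against input_TH at 3w. Without the filter Rnf122 was 0.019 in SC_TH against input_TH at 5m. Leaving out 1 mouse turned Prom1 in SC_SYN against SC_TH at 18m (-0.36 to 0.011, mouse 197) and in input_SYN against input_TH at 3w (-0.024 to 0.30, mouse 189), and Rnf122 (-0.20 to 0.20) and Bmp4 (-0.54 to 0.86) in SC_TH against input_TH at 5m (mouse 191). The cause was not tested.

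In 1 fit of all 48 libraries, Bcas1 (adjusted p = 0.26) and Gpr17 (0.199) lost their 18m against 5m calls in input_TH, while Gpr17 (0.00472) and Rnf122 (0.0372) passed in SC_SYN (edgeR). Thinning also ended, in SC_TH against input_TH, the calls of Gpr17 at 5m (0.0697) and 18m (0.669) and of Nfasc at 3w (0.147) and 18m (0.492). It ended those of Enpp6 in SC_SYN against SC_TH at 5m (0.102) and 18m (0.278) and in input_SYN against input_TH at 18m (0.0614), beside those of Prom1 and Bmp4 given above. With library totals Enpp6 kept only its call in SC_SYN against SC_TH at 3w, and Prom1 became lower at 5m and 18m (-0.99 and -0.75). Rnf122 and Bmp4, with as few as 2 and 4 counts in a library, had the lowest counts. Prom1 and Enpp6 went down to 8 counts in input_SYN at 5m.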

Other observations

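Markers of 5 thalamic neuron genes, a check on the dissection, gave no call in any age comparison of the 4 fractions with edgeR. Such a comparison of ages cannot show that single mice were dissected alike. At 3w, their sum ran from 51.3 to 142 CPM over SC_TH libraries and from 81.3 to 203 CPM over SC_SYN libraries. Tcf7l2 ran from 11.6 to 27.2 CPM in SC_TH at 3w, and the part of dissection in its values was not tested. In SC_SYN against SC_TH, 1, 2 and 2 of the thalamic markers were higher and 1 lower at 3w, 5m and 18m. Of 7 ependymal and choroid plexus markers, 2 fell from 3w to 5m in SC_TH (6 tested), and none passed from 5m to 18m in any fraction.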
